A study of Mus musculus with 4 samples.

Results

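The ubiquitin-conjugating (E2) enzymes were followed through a transcription shut-off in mouse macrophages. They were taken as the genes whose symbol starts with Ube2, leaving out Ube2c and processed copies, which gave 37 of the 41324 genes in the count table. Of these, 30 passed an abundance filter (a mean of at least 1 CPM, the count scaled to a common library total) that 10837 genes of the whole table passed. Ube2d2b, Ube2dnl1, Ube2dnl2, Ube2ql1, Ube2u and Ube2uos had no count in any of the 4 libraries, and the 3 counts that a count of 0 allows come to at most 0.246 CPM in the shallowest library. Ube2e2 was counted 16, 27, 76 and 17 times at 0, 2, 4 and 6 h and stayed under the filter. The symbol also takes 2 genes that are no E2 enzyme: Ube2cbp, an E2-binding protein with E3 activity, which was tested, and Ube2uos, an antisense transcript.

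RAW264.7 cells, a transformed mouse macrophage line, received 10 µg/ml actinomycin D, which binds DNA and stops RNA polymerases, and RNA was sequenced after 2, 4 and 6 h and from untreated cells. The aim of the course was a half-life for every mRNA. Libraries were made with a strand-keeping kit from rRNA-depleted RNA labelled as cytoplasmic. Each time is 1 library of 1 cell line, and whether the times were separate cultures is not in the labels.

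An E2 enzyme takes activated ubiquitin from an E1 enzyme onto its active-site cysteine and, together with an E3 ligase, passes it to a substrate. The E2 helps to set what is built: single ubiquitins, Lys48-linked chains that send proteins to the proteasome, Lys63-linked chains used in signalling and repair, or a ubiquitin-like protein such as NEDD8 or ISG15. In macrophages, Lys63-linked and linear chains carry signals from Toll-like and cytokine receptors, and ISG15 conjugation is part of the interferon response.

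The libraries held 35669434, 38260540, 70289647 and 12762100 counts at 0, 2, 4 and 6 h, so the 6 h values carry the largest counting error, with 26 to 3152 counts per tested gene of the family. All 8 macrophage markers examined passed the filter, and none of 21 markers of other cell types did (12 at 0 throughout, summed level 0.625 to 1.39 CPM per library). In bulk RNA, fewer cells and less RNA per cell cannot be told apart. Levels are CPM after TMM scaling, which puts the typical gene at a slope near 0. A slope above 0 therefore does not separate a transcript that was gained from one that was kept or only decayed more slowly than most. Slopes are in log2 per h, with edgeR p-values adjusted over all 10837 genes and called under 0.05. With 1 library per time, these p-values measure only the spread of the 4 libraries around a line, and intervals on levels and shares (95%) cover counting error only.

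With TMM scaling, 5 of the 30 transcripts fell and 3 rose, near the shares of all genes. At 2 h the 30 transcripts stood between 77.9 and 132% of untreated, with 27 of them between 80 and 125%. At 6 h they ranged from 43.3 to 154% around a median of 106%, and 17 lay between 80 and 125%. The share of all genes within these bounds was not computed, so these counts do not set the family apart. They also hold for TMM scaling only. With the divisors behind the authors' normalized values, 28 of the 30 were below untreated at 6 h. The median change there was −0.43 log2 for the family and −0.51 for all genes. Along the 6 h, 5 of 30 fell (16.7%, against 17.2% of all genes tested) and 3 rose (10.0%, against 8.63%). Ube2t, Ube2j2, Ube2o, Ube2g1 and Ube2z fell, and Ube2l6, Ube2l3 and Ube2e1 rose. Both shares are near those of all genes. The median slope was 0.0090 for the family and 0.0014 for all genes, and the interquartile range of slopes was 0.092 against 0.153.

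The split of calls depended on how the libraries were scaled. With DESeq2 size factors 5 fell and 1 rose, where 17.4 and 6.93% of all genes did. With total counts 1 fell and 0 rose (12.5 and 1.91% of all genes), and with scaling on 78 ribosomal protein mRNAs 6 fell and 0 rose (23.3 and 1.33%). With the divisors behind the authors' normalized values 16 fell, 53.3% of the family against 46.5% of all genes, and 0 rose, against 0.72%. The calls of the whole table thus moved the same way as those of the family. Relative to TMM values, the median of all genes at 6 h was moved to 0.17 (total counts), −0.33 (ribosomal proteins) and −0.51 log2 (divisors) from 0.0075. All 5 falls kept their direction in each of these settings. The 3 rises did so too, except Ube2e1 under the divisors, at a slope of −0.0011. Without the 4 h library none of the 8 calls passed edgeR's test (0 fell and 0 rose, 7 of 30 at an unadjusted p under 0.05), with adjusted p of 0.0562 to 0.107 for the falls and 0.102 to 0.181 for the rises. In that fit 351 genes of the whole table fell (3.24%) and 25 rose (0.231%).

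**Figure D1:**
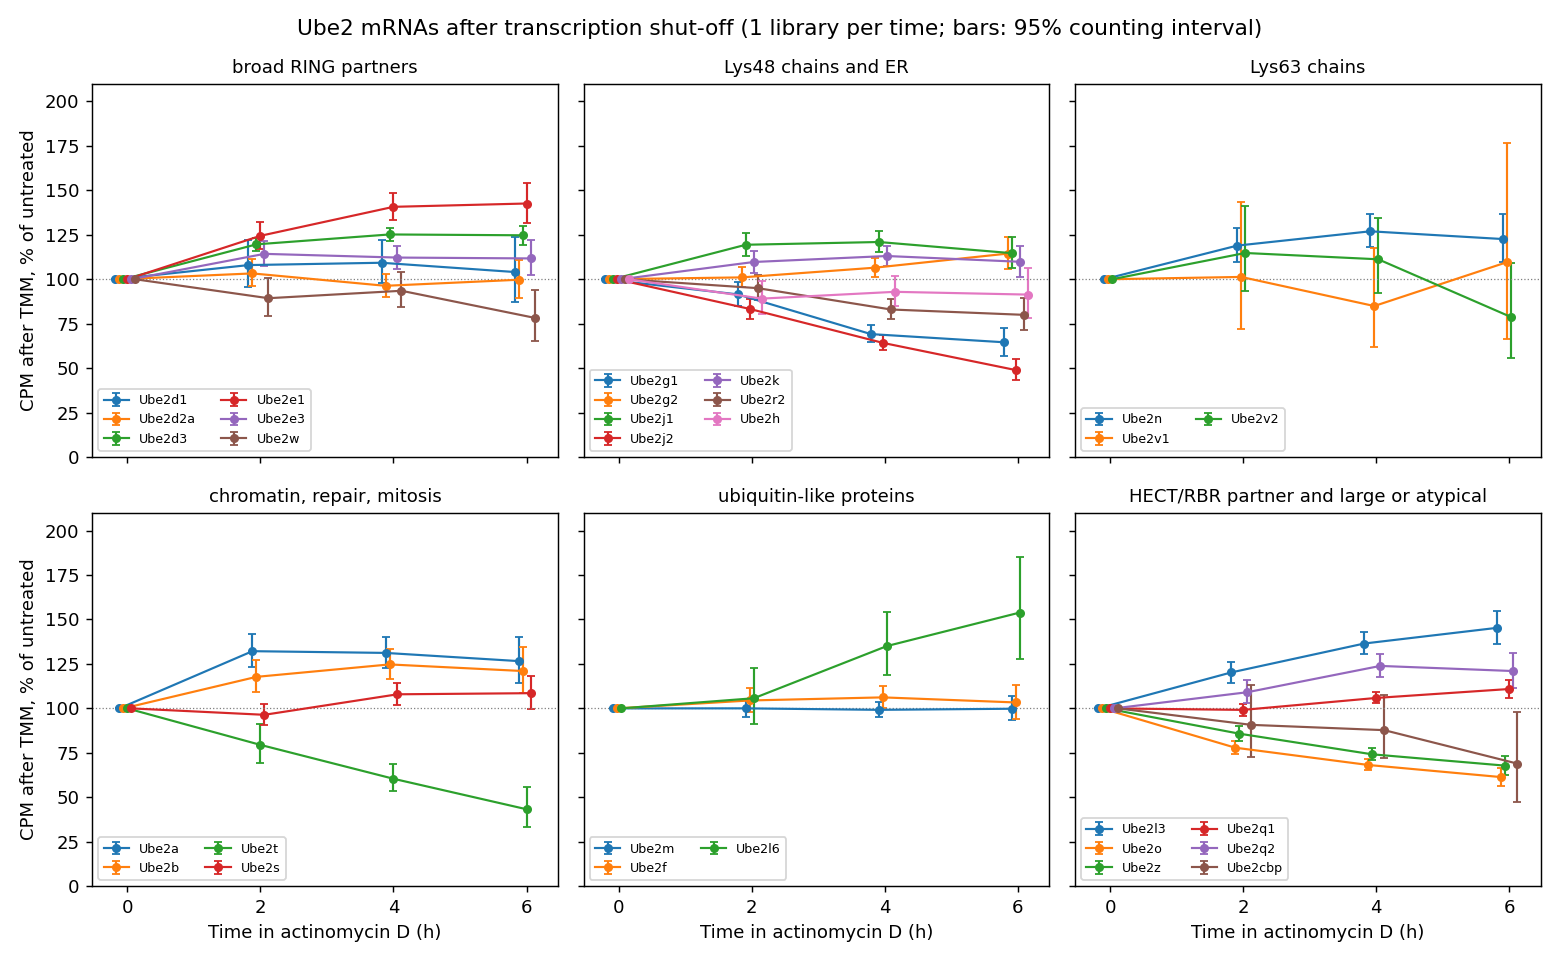
Level of 29 tested transcripts as percent of its CPM in the untreated library (vertical axis) against hours in actinomycin D (horizontal axis, points set apart slightly for legibility), in 6 panels by role; points are single libraries and bars are 95% counting intervals. Ube2t and Ube2j2 end lowest, at 43.3 and 48.9%, and Ube2l6 and Ube2l3 highest, at 154 and 145%.

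**Figure D2:**
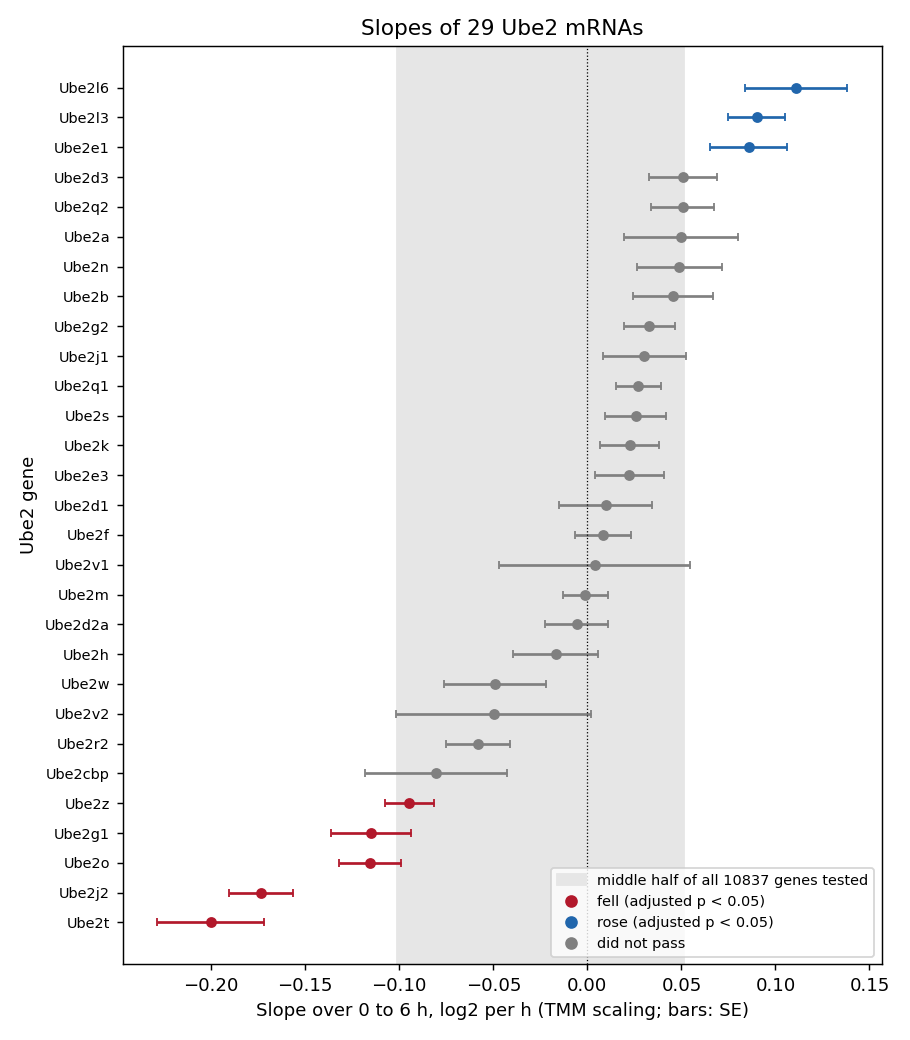
Fitted slope in log2 per h (horizontal axis, bars are standard errors) of 29 tested transcripts (vertical axis), over a grey band that spans the central 50% of all 10837 genes tested, −0.10 to 0.051. The 5 falls (red) are Ube2t, Ube2j2, Ube2o, Ube2g1 and Ube2z, and the 3 rises (blue) are Ube2l6, Ube2l3 and Ube2e1.

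Of the 6 E2s that serve many RING-type E3 ligases, none fell and Ube2e1 rose, and levels at 6 h were 78.3 to 143% of untreated. With the authors' divisors Ube2d2a, Ube2d3, Ube2e3 and Ube2w fell and none of this group rose. Ube2d3, a broadly acting E2 of the UbcH5 type, was the most counted of the family, with 207, 247, 259 and 258 CPM at 0, 2, 4 and 6 h. Its 3 treated libraries lay close together above the untreated one, at 120, 125 and 125%, and its slope of 0.05 did not pass the line test (adjusted p = 0.0965). Ube2d2a (mm10 chromosome 18) stayed level at 39.6, 40.9, 38.1 and 39.5 CPM, and Ube2d1 at 14.9, 16.1, 16.2 and 15.5 CPM. Within the Ube2d counts, Ube2d2a took 15.1% (14.4 to 15.9%) before treatment and 13.4, 12.2 and 12.6% (11.6 to 13.7%) after it, while Ube2d3 took 79.2, 81.3, 82.7 and 82.4%. These 2 coding sequences are 86.4% identical with a longest shared run of 42 bases, so reads could be split between them, and the sources used here do not give how the authors treated reads with several matches.

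Ube2e1 and Ube2e3 belong to a subfamily with an N-terminal extension before the catalytic fold. Ube2e1 (mm10 chromosome 14, 18282722 to 18331859, minus strand) stood at 57.1, 71.0, 80.3 and 81.4 CPM at 0, 2, 4 and 6 h. Each treated library was above the untreated one, at 124, 141 and 143% (6 h interval 132 to 154%), and the slope was 0.09 ± 0.021 (SE, adjusted p = 0.0469). The call was lost with DESeq2 size factors (adjusted p = 0.0525), without the 2 h library (0.0591) and without the untreated library, where the slope was 0.05 (adjusted p = 0.126). Ube2e3 stood at 52.4, 59.9, 58.8 and 58.5 CPM and did not pass (0.02, adjusted p = 0.368). Ube2e1 counts per Ube2e3 count accordingly went from 1.09 to 1.19, 1.37 and 1.39. Exons of Nkiras1 overlap 16.1% of the Ube2e1 exon bases on the opposite strand, and Nkiras1 averaged 2.09 CPM with a slope of −0.10 ± 0.054 (adjusted p = 0.224). The sources used here do not give the strand setting of the counting. Ube2w, which puts ubiquitin on the N-termini of proteins, was at 78.3% of untreated at 6 h and did not pass (adjusted p = 0.214).

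The E2s that build Lys48-linked chains, several of them at the endoplasmic reticulum (ER), held the clearest contrast between related genes. Ube2j1 and Ube2j2 are both anchored in the ER membrane and act in the disposal of misfolded proteins. Ube2j2 (mm10 chromosome 4, 155943831 to 155959604, plus strand) stood at 52.7, 43.9, 33.9 and 25.8 CPM, lower at each later time, or 83.3, 64.2 and 48.9% of untreated (6 h interval 43.2 to 55.2%). Its slope was −0.17 ± 0.017 (adjusted p = 0.0160). Ube2j1 (chromosome 4, 33031416 to 33052363, plus strand) stood at 73.2, 87.4, 88.5 and 83.9 CPM, with all treated libraries above the untreated one. Its slope of 0.03 did not pass (adjusted p = 0.321), and with the authors' divisors Ube2j1 fell, at a slope of −0.06 (adjusted p = 0.0326). A ratio within a library does not depend on the scaling: Ube2j2 took 41.9% (40.3 to 43.5%) of the counts of the pair before treatment, 33.5% at 2 h, 27.7% at 4 h and 23.5% (21.3 to 25.9%) at 6 h. None of these 4 intervals overlapped, and Ube2j1 counts per Ube2j2 count went from 1.39 to 3.25.

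Ube2g1 and Ube2g2, relatives that both extend Lys48-linked chains, differed in the same way. Ube2g1 (mm10 chromosome 11, 72607283 to 72686481, plus strand), which works with cullin-RING ligases, stood at 42.7, 39.1, 29.6 and 27.6 CPM. It was lower at each later time, at 91.5, 69.2 and 64.6% of untreated, with a slope of −0.11 ± 0.021 (adjusted p = 0.0323). Ube2g2 (chromosome 10, 77622275 to 77645993, plus strand), the soluble E2 of ER-associated degradation, stood at 67.6, 68.3, 72.0 and 77.4 CPM and did not pass (0.03, adjusted p = 0.123). The share of Ube2g1 in the counts of this pair was 38.7% (37.1 to 40.4%) at 0 h, 36.4% (35.0 to 37.8%) at 2 h, 29.1% at 4 h and 26.3% (23.9 to 28.8%) at 6 h. The first 2 of these intervals overlapped, as did the last 2, and no early interval overlapped a late one. Dividing counts by exon length, which is the same in every library, changes the shares but cannot change their order over time.

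The members of both pairs differ at many bases, and the stretches of coding sequence printed here show how far even their most similar parts differ. Each stretch is the best-matching 60 bases of an alignment of the coding sequences in GENCODE M21, 5′ to 3′, with capitals at the bases that differ between the partners. Ube2j1 is shown from base 193 to 252 of its coding sequence, Ube2j2 from 202 to 261, Ube2g1 from 156 to 215 and Ube2g2 from 153 to 212.
Ube2j1: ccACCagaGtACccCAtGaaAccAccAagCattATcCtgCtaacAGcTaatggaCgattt
Ube2j2: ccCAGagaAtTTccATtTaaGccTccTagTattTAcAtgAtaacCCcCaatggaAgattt
Ube2g1: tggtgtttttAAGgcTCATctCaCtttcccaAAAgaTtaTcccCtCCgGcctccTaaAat
Ube2g2: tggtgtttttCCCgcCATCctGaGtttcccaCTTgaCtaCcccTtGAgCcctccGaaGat
Of 60 bases, 39 match in the first pair and 40 in the second. Over the aligned coding sequences identity is 61.1% for Ube2j1 and Ube2j2, with a longest shared run of 10 bases, and 58.4% for Ube2g1 and Ube2g2, with a longest run of 11.

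**Figure D3:**
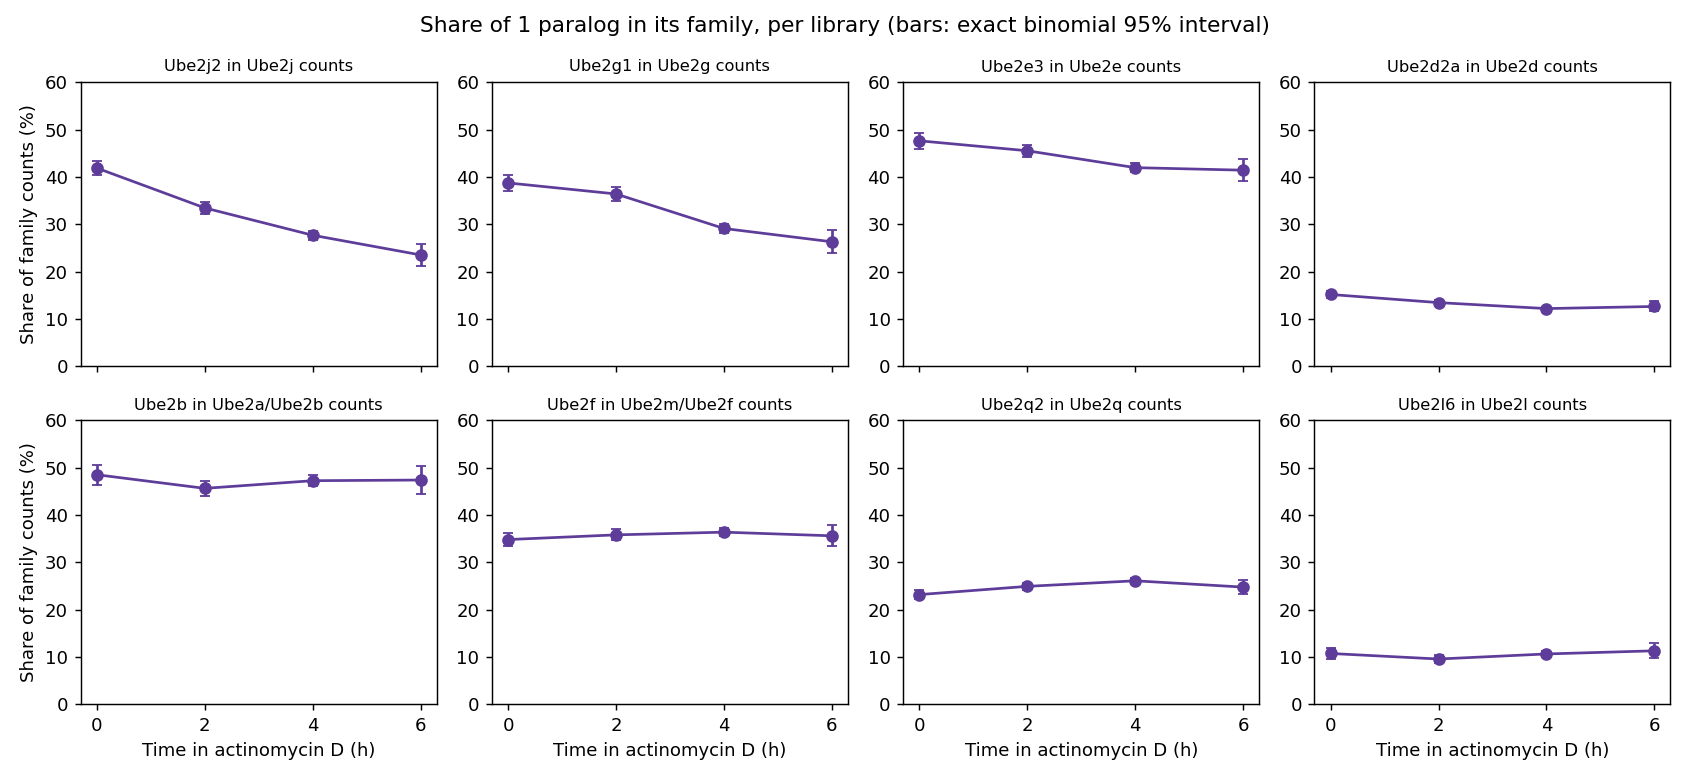
Share of 1 gene in the summed counts of its family (vertical axis, percent) against hours in actinomycin D (horizontal axis), 1 panel per family; points are single libraries and bars exact binomial 95% intervals. Ube2j2 goes from 41.9 to 23.5% and Ube2g1 from 38.7 to 26.3%, while Ube2f stays between 34.8 and 36.4% of its pair.

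The other E2s of this role did not pass the line test with TMM scaling, though Ube2k and Ube2r2 fell with the authors' divisors. Ube2k, which makes Lys48-linked chains without help, stood at 68.0, 74.7, 76.9 and 74.7 CPM, and its slope of 0.02 became −0.06 with the divisors (adjusted p = 0.0214). Ube2r2, the relative of Cdc34 that serves SCF ligases, was lower in each treated library and reached 80.0% of untreated at 6 h, with a slope of −0.06 (adjusted p = 0.0653, and 0.0175 with the divisors). Ube2h, the E2 of the CTLH ligase complex, was at 91.4% at 6 h.

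Ube2n makes Lys63-linked chains together with Ube2v1 or Ube2v2, variants that lack the active-site cysteine. None of the 3 fell or rose. Ube2n was at 123% of untreated at 6 h (110 to 137%). Its partners were among the lowest transcripts: Ube2v2 stood at 5.10, 5.85, 5.67 and 4.01 CPM and Ube2v1 at 1.94, 1.97, 1.65 and 2.13 CPM. At 6 h they rested on 49 and 26 counts, with intervals of 55.9 to 109% and 66.4 to 177% of untreated, so a change within these bounds was not detectable at this depth. Ube2v1 shares 61.5% of its exon bases with the annotated gene Gm20431 on the same strand, and reads there may have been left out or split.

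Among E2s of chromatin, DNA repair and mitosis, Ube2t had the steepest slope of the family. Ube2t, the E2 that places a single ubiquitin on FANCD2 in the Fanconi anaemia repair pathway, lies on mm10 chromosome 1 (134962565 to 134974162, plus strand). It stood at 13.6, 10.8, 8.23 and 5.89 CPM, from 414, 468, 624 and 72 counts, lower at each later time. It kept 79.5, 60.4 and 43.3% of the untreated level (6 h interval 33.2 to 55.7%), with a slope of −0.20 ± 0.029 (adjusted p = 0.0222). It was also the only E2 that fell with total-count scaling, at an adjusted p of 0.0436. Ube2s, which extends Lys11-linked chains for the anaphase-promoting complex, was at 109% at 6 h and did not pass (adjusted p = 0.260). Ube2a (38.0, 50.3, 49.9 and 48.1 CPM) and Ube2b (35.9, 42.2, 44.7 and 43.4 CPM), the mammalian counterparts of yeast Rad6, were higher in all treated libraries than in the untreated one and did not pass the line test (adjusted p = 0.249 and 0.161). Their ratio stayed near 1, with Ube2a at 51.5, 54.4, 52.7 and 52.6% of their joint counts. Their coding sequences have the same length of 456 bases and are 77.6% identical. The closest 60 bases of the pair, positions 286 to 345 in both, show 52 matches, with differing bases in capitals.
Ube2a: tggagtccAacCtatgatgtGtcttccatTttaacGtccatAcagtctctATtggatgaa
Ube2b: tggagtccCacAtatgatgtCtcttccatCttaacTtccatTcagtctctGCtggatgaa
The longest run shared by the 2 coding sequences is 17 bases, and the ratio of their counts was 1.06, 1.19, 1.12 and 1.11 at 0, 2, 4 and 6 h.

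Among the E2s for ubiquitin-like proteins, Ube2m and Ube2f stayed within a few percent of untreated at 6 h and Ube2l6 rose. Ube2m, which charges NEDD8 for most cullins, stood at 98.0, 98.0, 97.2 and 97.8 CPM, and Ube2f, which serves the cullin Cul5, at 52.4, 54.7, 55.6 and 54.1 CPM. The spread of Ube2m over the 4 libraries was under 1 CPM, and its slope was −0.0010 ± 0.012. With the authors' divisors Ube2m and Ube2f fell, at slopes of −0.09 and −0.08 (adjusted p = 0.0243 and 0.0227). Ube2l6 (mm10 chromosome 2, 84798828 to 84810335, plus strand), the E2 for the interferon-induced modifier ISG15, stood at 10.0, 10.6, 13.5 and 15.4 CPM, from 304, 457, 1024 and 188 counts. The 4 h and 6 h libraries were above the other two, at 135 and 154% of untreated (6 h interval 128 to 185%), with a slope of 0.11 ± 0.027. Its adjusted p of 0.0489 lay just under the threshold and became 0.0679 with the DESeq2 Wald test, 0.0540 with DESeq2 size factors, 0.118 without the 2 h library and 0.136 without the 6 h library.

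Ube2l3 works with HECT and RING-between-RING ligases, among them the complex that builds linear ubiquitin chains. It lies on mm10 chromosome 16 (17152013 to 17202649, minus strand) and stood at 83.1, 100.0, 113 and 121 CPM, higher at each later time. It reached 120, 136 and 145% of untreated (6 h interval 136 to 155%), with a slope of 0.09 ± 0.015 (adjusted p = 0.0282). Exons of Ydjc overlap 28.6% of the Ube2l3 exon bases on the opposite strand. Ydjc itself averaged 50.4 CPM and fell, with a slope of −0.07 ± 0.014 (adjusted p = 0.0345). On the authors' normalized values, Ube2l3 stayed at 98.8, 98.9 and 101% of untreated.

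The large and atypical E2s included another 2 falls. Ube2o, a long protein with E2 and E3 activity that marks unassembled proteins for destruction, lies on mm10 chromosome 11 (116537740 to 116581447, minus strand). It stood at 99.9, 77.8, 68.1 and 61.3 CPM, with its largest step before 2 h, at 77.9, 68.2 and 61.4% of untreated, and a slope of −0.12 ± 0.017 (adjusted p = 0.0226). Ube2z, which is charged by the E1 enzyme Uba6, lies on the same chromosome (96047432 to 96065388, minus strand). It stood at 102, 87.5, 75.7 and 69.2 CPM, or 85.8, 74.2 and 67.8% of untreated, with a slope of −0.09 ± 0.013 (adjusted p = 0.0217). Ube2q1 (201, 199, 213 and 223 CPM) and Ube2q2 (60.6, 66.1, 75.1 and 73.3 CPM) did not pass (adjusted p = 0.145 and 0.0837). Ube2cbp was at 69.0% of untreated at 6 h from 41 counts and did not pass (adjusted p = 0.161, and 0.0298 with the authors' divisors).

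A line misses transcripts that change early and then level off, so a quadratic time term was also tested. Ube2a, Ube2d3, Ube2j1 and Ube2e1 bent downward with edgeR (adjusted p = 0.0157, 0.0161, 0.0143 and 0.0235), 4 of 30 or 13.3%, against 12.1% of all genes. Each had its largest gain before 2 h and gained less or declined from there: Ube2a, for example, stood at 132, 131 and 127% of untreated. None bent upward, against 19.0% of all genes, and at an unadjusted p under 0.05 in edgeR there was 1, Ube2o. The bends depended on the scaling, in the family as in the whole table. With total counts 19 members bent downward and none upward, against 45.4 and 6.43% of all genes. With ribosomal protein scaling 4 bent upward and none downward (28 and 0.729% of all genes), and with the authors' divisors 5 and none (30.6 and 0.655%). In the joint test of both time terms, 6 were lower (20%, against 36.9%) and 12 higher (40.0%, against 32.8%). Direction in this test is that of the mean log2 change at 2, 4 and 6 h. The lower ones were the 5 falls and Ube2r2. This split became 16 and 1 with ribosomal protein scaling, against 54.7 and 5.28% of all genes, and 26 and 0 with the divisors, against 72.9 and 2.61%. It was 5 and 17 with total counts (25.1 and 48.4% of all genes) and 6 and 10 with DESeq2 size factors (37.2 and 31.1%).

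At 6 h with TMM scaling, Ube2t and Ube2j2 were at or below 50% of untreated, 2 of 30 (6.67%, against 16.1% of all genes). None was at 2 or 4 h, where 9.06 and 14.7% of all genes were. None reached 2 times untreated at 2, 4 or 6 h, against 1.10, 1.43 and 2.77%. Summed over the 30 transcripts, the level was 1730, 1804, 1836 and 1812 CPM, so on this scale the sum changed little while its makeup shifted.

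The authors' deposited table gives a half-life per gene. Recomputation returned each of 14957 half-lives to within 0.1% from a log-scale line through the untreated value over 0, 2 and 4 h on the authors' normalized values, so the 6 h library did not enter. In the authors' deposited table the shortest E2 half-lives were 3.34 h for Ube2t, 3.63 h for Ube2j2 and 3.73 h for Ube2o. Ube2g1 at 4.16 h and Ube2z at 4.35 h followed in that table. These are the 5 that fell, and half-lives and slopes come from the same counts, so the match is not independent. Next came Ube2r2 at 5.48 h and Ube2cbp at 5.78 h, so 7 of 30 lay under 6 h, 11 between 6 and 12 h and 11 at 12 h or longer. The shares of all tested genes in these classes were not computed, so the split describes these 30 only. A negative half-life in the authors' deposited table means no loss over 0 to 4 h, and it was listed for 988 of 10836 tested genes (9.12%) and 1 of these 30. With negative values ranked as the longest, the median in the authors' deposited table was 9.70 h for these 30 genes and 8.56 h for all tested genes. The 1 negative value in the authors' deposited table is that of Ube2e1, −114 h, since its normalized values stood slightly above untreated. Ube2l3 is listed at 198 h in the authors' deposited table and Ube2a at 364 h, the latter with an R2 of 0.0077.

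Adding the 6 h library to the same counts and divisors left the 5 short half-lives in place and moved others. Refitted over 4 times, Ube2t had 3.47 h, Ube2j2 3.84 h, Ube2o 4.94 h, Ube2g1 4.97 h and Ube2z 5.51 h. Ube2g2 went to 18.6 h from a deposited 9.84 h, Ube2q1 to 16.7 h from 9.43 h and Ube2s to 16.3 h from 9.56 h. Ube2v2 went the other way, to 7.25 h from 14.1 h, on 49 counts at 6 h. The longest values were the least stable: Ube2a went to 27.2 h from 364 h and Ube2e1 to 887 h from −114 h. Ube2l3 went to −310 h from 198 h and Ube2l6 to −42.8 h from 37.5 h. The slopes of Ube2e1, Ube2l3 and Ube2l6 in this refit were −0.0011, 0.0032 and 0.023, and none passed the line test. On the authors' normalized values at 6 h, Ube2t kept 30.2%, Ube2j2 34.2%, Ube2o 42.8%, Ube2g1 45.1% and Ube2z 47.3% of untreated, and Ube2m 69.7%.

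Levels between genes were compared per kb of annotated exon, counting every base that is exon in any annotated transcript of the gene. The order depends on this choice of length, and an order by the length of a single transcript was not computed. Ube2m was the most abundant on this scale, averaging 41.5 CPM per kb over the 4 libraries, before Ube2q1 (33.7), Ube2g2 (29.3), Ube2j1 (23.6) and Ube2z (20.9). Ube2a and Ube2b followed at 20.5 and 19.5 CPM per kb, each with an untreated value below all its treated ones. At the low end were Ube2t (1.99), Ube2v2 (0.723) and Ube2v1 (0.706). The falls changed some places in the order: Ube2z stood at 25.5 CPM per kb before treatment and 17.3 at 6 h, below Ube2l3, which went from 14.2 to 20.7. Ube2d3, first by CPM, is fifteenth per kb on this measure. Its exon bases over all annotated transcripts number 24499, while the annotated transcript used for its sequence has 3833, so its place may be understated.

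**Figure D4:**
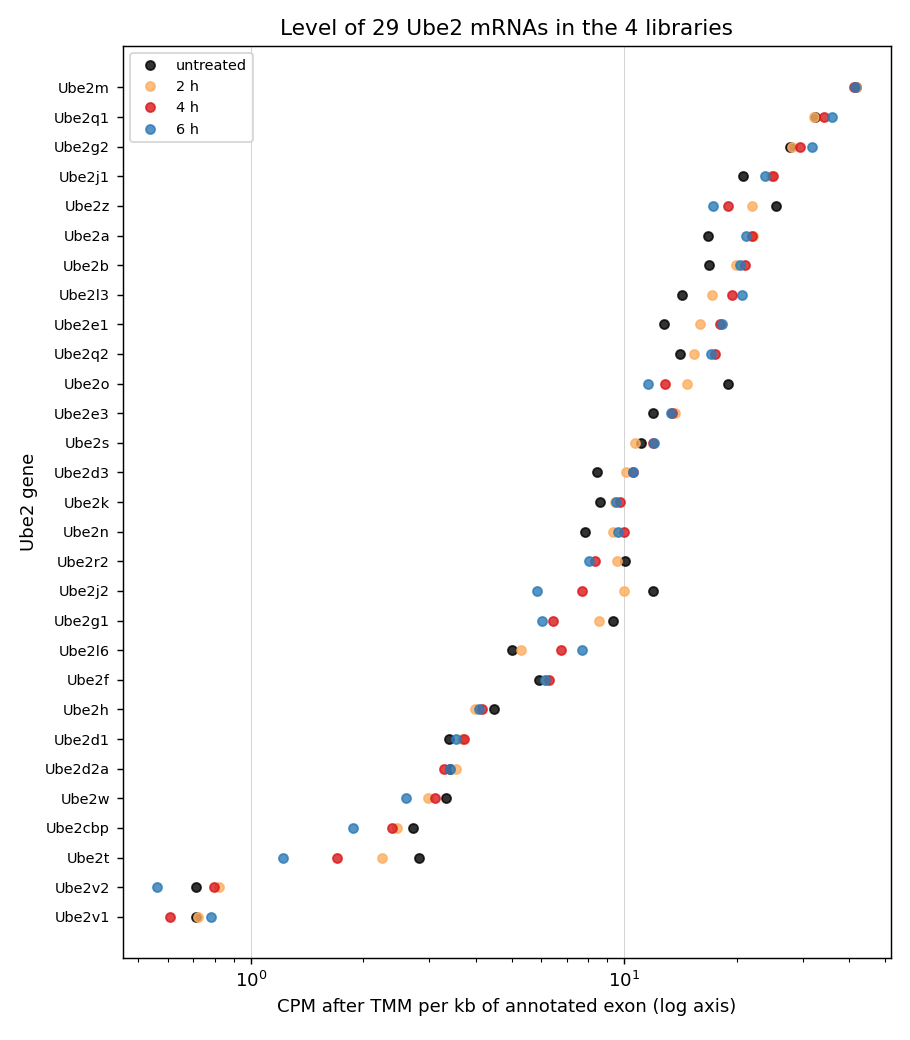
CPM after TMM scaling per kb of annotated exon (horizontal log axis) for 29 tested transcripts (vertical axis, ordered by the mean), with 1 point for each library coloured by time. Ube2m leads at 41.5 CPM per kb on average, and the points of Ube2t, Ube2j2, Ube2o, Ube2g1 and Ube2z run from untreated on the right to 6 h on the left.

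A/T-rich elements in 3′ untranslated regions (UTRs) are known binding sites of decay factors, so the heptamer TATTTAT was searched on the transcript strand of 1 annotated transcript per gene (GENCODE M21, mm10). Of 29 tested members with an annotated 3′ UTR, 8 held it (27.6%), against 2738 of 9564 genes (28.6%). Among the falls Ube2t and Ube2j2 held it, and Ube2o, Ube2g1 and Ube2z did not. The median slope was −0.03 for the 8 with it and 0.02 for the 21 without, against −0.02 and 0.01 for all genes. Transcripts that did not pass the line test with TMM scaling also held it, among them Ube2m and Ube2g2. On the authors' normalized values these 2 were at 69.7 and 79.9% of untreated at 6 h. The 4 sites are shown with 10 bases on each side and the heptamer in capitals, for the 2 falls first.
Ube2t: tagtttgtttTATTTATcttgtacata
Ube2j2: ttttaagattTATTTATtttattatat
Ube2g2: tattcatttgTATTTATtaaatgaaaa
Ube2m: cccctgcaaaTATTTATtgggggcccg
They start at base 150 of 216 in the 3′ UTR of Ube2t, 1652 of 2239 in Ube2j2, 1348 of 1434 in Ube2g2 and 55 of 376 in Ube2m. The shorter ATTTA, which lies within every TATTTAT, was in 26 of 29 members (89.7%) and in 67.9% of all genes. Its median number per kb of 3′ UTR was 1.75 in members and 1.29 in all genes. For ATTTA the slopes of members lay the other way: the median was 0.022 for the 26 with it and 0.0038 for the 3 without. The medians for all genes were −0.0039 and 0.0065. Members had short coding sequences (median 549 bases, against 1383) and somewhat longer 3′ UTRs (1538 against 1026 bases). These are descriptions of annotated sequence, and a match is not a shown binding site.

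The rest of the conjugation pathway was read from lists of E1 enzymes, modifiers, other E2s and E3 ligases, whose median slopes were 0.03, 0.06, 0.05 and −0.0011. Of 10 E1 genes, 0 fell and Uba1, the main ubiquitin-activating enzyme and the most abundant of them, rose (459, 532, 571 and 606 CPM, slope 0.07 ± 0.014, adjusted p = 0.0386). A line misses Mocs3, the E1 of the modifier Urm1, which stood at 32.6, 7.42, 9.02 and 16.4 CPM and bent upward (adjusted p = 4.8e-04). By the joint test 2 E1 genes, Mocs3 and Uba2, were lower and 7 higher, where 36.9 and 32.8% of all genes were. This split holds for TMM scaling, and with the divisors the shares of all genes became 72.9 and 2.61%. Uba2, at 198, 203, 200 and 172 CPM, was lower by its mean change only, being below untreated at 6 h but not at 2 or 4 h. Of 17 ubiquitin and ubiquitin-like genes, Ubb fell (160, 134, 72.9 and 49.4 CPM, slope −0.30 ± 0.031, adjusted p = 0.0165), and Fau, Gabarap and Map1lc3b rose. Rps27a, which encodes ubiquitin fused to a ribosomal protein, was the most abundant at an average of 499 CPM and did not pass (adjusted p = 0.0610). Of 8 E2s and E2-like proteins under other symbols, 0 fell, and Uevld and Ufc1, the E2 for UFM1, rose. Birc6, a giant E2, was the most abundant of these and stayed level (513, 581, 533 and 520 CPM).

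Of 62 E3 ligases, 17 fell and 4 rose, where 17.2 and 8.63% of all genes did (27.4 and 6.45% of the list). Rnf25, Traf2, Traf6, Birc3, Rnf31, Syvn1 and Rnf139 were among those that fell. The others were Rnf8, Rnf168, Rnf4, Pias1, Pias4, Dcun1d3, Rchy1, Ubr2, Kcmf1 and Ranbp2, and those that rose were Ubr1, Rbck1, Hltf and Wwp1. Some partners of E2s described above ended far lower than the E2 itself at 6 h. Traf6, a ligase that uses Ube2n, was at 33.9% of untreated while Ube2n was at 123%. Syvn1, an ER ligase, was at 26.5%, below both Ube2j2 and Ube2g2. Rnf31, a subunit of the linear-chain ligase that uses Ube2l3, was at 40.2%, whereas its partner Rbck1 was at 131%. Huwe1, the most abundant E3 of the list, averaged 996 CPM and did not pass (adjusted p = 0.141). Falls in this list numbered 13 with total counts (12.5% of all genes), 22 with ribosomal protein scaling (23.3%), 45 under the authors' divisors (46.5%) and 5 without the 4 h library (3.24%). Of the 10 rises in these lists, none passed with total counts, ribosomal protein scaling or the divisors, and under the divisors the slopes of Uba1, Fau, Gabarap, Ubr1, Rbck1 and Hltf lay below 0.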

How the data were processed

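RNA of RAW264.7 cells at 0, 2, 4 and 6 h of actinomycin D was measured, 1 library per time, and libraries were placed on the time axis by their labelled treatment. The authors used STAR 2.5.3a, featureCounts and Subread 1.6.3 with mm10, per the submitters' processing notes. The sources used here do not give their annotation release, strand setting or handling of multiply matching reads. The deposited raw counts were used as they are. The deposited normalized signal equals those counts divided by 1 whole number per library (1300, 2250, 4476 and 748), whose origin the sources used here do not give. From the authors' deposited table, half-lives in h were used as a score column and R2 as a fraction.

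CPM, TMM factors, slopes and bends were computed with edgeR 4.0.16 (quasi-likelihood tests, R 4.3.3) for genes with a mean CPM of at least 1, with 2 residual degrees of freedom for the line and 1 for the curve. Adjusted p-values are Benjamini-Hochberg over 10837 genes. Log2 changes from untreated used a prior count of 0.5. Intervals are exact Poisson or binomial at 95%, and 3 counts were taken as the upper limit of a count of 0. Alternatives were DESeq2 1.42.0 (size factors, Wald test), total counts, ribosomal protein scaling, the deposited divisors, no filter, a mean CPM of at least 5, a prior count of 2 and leaving out each library. Transcripts and exons came from GENCODE M21 (GRCm38, the build called mm10), to which 37 of 37 members and 9818 of 10837 tested symbols matched. Alignments used Biopython 1.88, and coordinates are 1-based.

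Values in each library are given for members past the line or bend test, the 10 with the highest mean CPM and members of paralog families. Other members are given by ranges, and 1 tested member counted among the 30 is not reported here by itself. From the pathway lists, genes past the line test and the most abundant member are named. Members, lists and tests were chosen with earlier results of these data known. E3 ligases set beside an E2, the genes printed as sequences, Mocs3 and Uba2, and the half-lives singled out were chosen after their values were seen.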

Additional observations from a re-analysis of the deposited data

How the results depend on the processing

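The 5 falls kept their direction in every setting run and kept their calls in all but 2: total counts (1 of 5) and leaving out the 4 h library (0 of 5). The number of members that fell was 1 when scaled on total counts, 16 under the deposited divisors and 0 to 5 when 1 library was left out. The number that rose was 1 with DESeq2 size factors or with no abundance filter, 0 with total counts, ribosomal protein scaling or the divisors, and 0 to 2 when 1 library was left out. Bends upward numbered 4 with ribosomal protein scaling and 5 with the divisors, and bends downward 19, 0 and 0 with total counts, ribosomal proteins and divisors. By the joint test 16 and 26 members were lower, and 1 and 0 higher, with ribosomal proteins and divisors. The median slope was 0.030 with total counts, −0.046 with ribosomal proteins, −0.078 with the divisors and −0.0044 to 0.022 when 1 library was left out. Of 18 members with a slope above 0, 15 turned below it with ribosomal protein scaling, 16 with the divisors and 6 without the untreated library. Those called by the line or bend test, and Ube2g2, were Ube2a (−0.0046 with ribosomal proteins, −0.037 with divisors, −0.015 to 0.098 when 1 library was left out), Ube2d3 (−0.0038 and −0.036 with the same scalings), Ube2j1 (−0.024 and −0.056, and −0.014 to 0.069 when 1 was left out), Ube2g2 (−0.022 and −0.054) and Ube2e1 (−0.0011 with divisors). With the divisors Ube2d3 and Ube2j1 fell. For Ube2a and Ube2j1 the lowest value left out the untreated library and the highest the 6 h library. These scalings move all genes alike. The cause of the loss of calls without the 4 h library was not tested. With the DESeq2 Wald test 5 fell and 3 rose, Ube2d3 in place of Ube2l6. No paired analysis was possible because each time has 1 library and the labels carry no replicate numbers. The 6 h library, at 12762100 counts, limits Ube2v1, Ube2v2 and Ube2cbp most.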
